A study of Mus musculus with 6 samples.

Results

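Of the 10880 cells sampled from mouse intestinal organoids on day 1, 5260 carried 10 or more UMIs summed over the mitotic genes Ccnb1, Cdc20, Plk1 and Ube2c, and these cells are described here. A UMI, or unique molecular identifier, marks 1 captured mRNA molecule. The cells came from both day-1 libraries, 2915 of 5576 barcodes in library 1 and 2345 of 5304 in library 2, and were compared with the 2661 and 2959 other cells of the same libraries. They were chosen by their RNA values, so differences from the other cells are given as a description with no test. They are called mitotic-gene-high cells below, since RNA does not place a cell in mitosis.

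The series held 29565 cells in 6 droplet libraries of organoids grown from single intestinal cells of wild type C57BL/6 mice aged 8 weeks. Day-1 organoids were sampled at 24 h and received the vehicle DMSO, in 2 libraries. The day-4 libraries, sampled at 96 h, were 1 each of vehicle, an RXR antagonist at 5 µM, all-trans retinoic acid (atRA) at 10 µM and vitamin A-free medium. RXR is the retinoid X receptor, the partner through which the retinoic acid receptors act. Until day 3 all organoids grew with EGF, Noggin and R-spondin plus Wnt3a-conditioned medium, the ROCK inhibitor Y-27632 and the GSK3 inhibitor CHIR99021, and from day 3 with EGF, Noggin and R-spondin alone. Day and medium therefore cannot be told apart. The design names 2 mice in duplicate without tying a mouse to a library, so the p-values below measure only the spread between these libraries, which may be technical.

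A cell that enters mitosis activates the kinase CDK1 with cyclin B, while Polo-like kinase 1 (Plk1) and the Aurora kinases build the bipolar spindle and attach it to chromosomes at the kinetochores. The anaphase-promoting complex (APC/C), a ubiquitin ligase, then separates the sister chromatids and ends mitosis by marking securin and cyclin B for destruction; Cdc20 is its activator and Ube2c the enzyme that supplies its ubiquitin. The mRNAs of these proteins are made as a late wave that begins after DNA replication and lasts into mitosis, so RNA does not separate G2 from mitosis. In the intestine, dividing cells are the crypt stem cells and their progeny, and most mature absorptive and secretory cells no longer divide.

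The late wave is known to be read from promoters that pair a CHR element (cell cycle genes homology region, bound by the MuvB complex) with CCAAT boxes (bound by NF-Y). The 150 bases just upstream of the transcription start are shown for the 4 genes of the rule and for Cdk1 and Cenpf, which followed their sum closely from cell to cell. The sequences are from RefSeq on GRCm38.p6, 5′ to 3′ on the strand of the gene, with capitals for TTTGAA or TTCAAA (the CHR letters) and for CCAAT or ATTGG.
Ccnb1 (chr13:100786487-100786636, minus strand): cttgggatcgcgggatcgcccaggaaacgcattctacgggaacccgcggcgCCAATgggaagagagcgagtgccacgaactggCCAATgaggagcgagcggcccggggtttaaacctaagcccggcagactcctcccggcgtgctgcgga
Cdc20 (chr4:118437344-118437493, minus strand): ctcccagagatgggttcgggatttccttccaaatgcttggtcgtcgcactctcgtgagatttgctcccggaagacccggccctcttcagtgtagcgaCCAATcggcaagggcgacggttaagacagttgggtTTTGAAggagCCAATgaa
Plk1 (chr7:122159285-122159434, plus strand): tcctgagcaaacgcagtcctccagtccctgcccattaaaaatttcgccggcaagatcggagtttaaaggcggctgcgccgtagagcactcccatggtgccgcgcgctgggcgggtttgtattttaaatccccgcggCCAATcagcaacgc
Ube2c (chr2:164769779-164769928, plus strand): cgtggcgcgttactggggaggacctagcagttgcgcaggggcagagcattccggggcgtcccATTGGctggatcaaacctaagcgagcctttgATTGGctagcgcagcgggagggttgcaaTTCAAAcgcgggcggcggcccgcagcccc
Cdk1 (chr10:69352913-69353062, minus strand): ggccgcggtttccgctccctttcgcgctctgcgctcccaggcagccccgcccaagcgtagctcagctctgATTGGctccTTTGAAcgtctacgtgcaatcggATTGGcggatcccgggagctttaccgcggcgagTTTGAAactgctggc
Cenpf (chr1:189688087-189688236, minus strand): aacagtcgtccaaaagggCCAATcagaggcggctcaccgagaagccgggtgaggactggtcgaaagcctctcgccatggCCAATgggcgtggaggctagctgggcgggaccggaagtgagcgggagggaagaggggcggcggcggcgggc

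Counted from the first transcribed base as 0, the CHR letters began at -18 in Cdc20, at -29 in Ube2c and at -71 and -15 in Cdk1. In Plk1 and Cenpf they began downstream of the bases shown, at 30 and 2, and in Ccnb1 the 300-base window held none. Only these exact letters were searched, so a CHR element with other letters would be missed. CCAAT letters lay within the printed bases of all 6 genes. Over windows from 250 bases before to 50 after the start, on both strands, the CHR letters occurred in 18.1% of 27025 genes and in 26 of the 35 genes (74.3%) with a window among those 2-fold higher in the mitotic-gene-high cells. The 35 include the 4 genes of the rule, of which 3 held these letters. Among the 25 DNA replication genes with a window, 3 (12%) held them. The wider mitotic lists held them in 57 of 110 windows (51.8%). The letters TTCCCGC or GCGGGAA, the core of the E2F site of replication genes, occurred in 4.66% of all genes, in 1 of the 35 (2.86%), in 11 of the 110 (10%) and in 10 of the 25 replication genes (40%). CHR and CCAAT letters occurred together in 7.12% of all windows and in 23 of 35 (65.7%). A match describes the letters and is not a measured binding site; of the 40 higher genes, Incenp, Smc4, Aurkb, Kif20a and Tpx2 were not matched in the table.

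Mitotic-gene-high cells made up 52.3% of the barcodes of day-1 library 1 (exact Clopper-Pearson 95% interval 51.0 to 53.6) and 44.2% of library 2 (42.9 to 45.6). By the same sum they made up 11.6% of day-4 vehicle (10.7 to 12.5), 15.1% of vitamin A-free (14.1 to 16.1), 6.36% of RXR antagonist (5.58 to 7.21) and 4.88% of atRA barcodes (4.32 to 5.49). Both day-1 shares lay above all 4 day-4 shares. The intervals cover counting error only, and with 1 library in each day-4 group no test was made. Scaling each barcode to 12000 UMIs gave 50.1%, 43.3% and 12.1% in the day-1 libraries and day-4 vehicle. Thinning each barcode to 5000 UMIs and asking for 4 gave 58.8%, 51.6% and 14.1%, after 515, 610 and 368 shallower barcodes were left out.

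The chosen cells carried more RNA than the rest. Their median was 14773 UMIs in library 1 and 14897 in library 2, against 8192 and 9740 in the other cells, and 14422 against 10493 in day-4 vehicle. Median mitochondrial shares were close, at 2.91% and 2.78% against 2.98% and 2.86%. The day-1 libraries shared 9 barcodes, of which 1 was mitotic-gene-high in both. The 181 and 148 mitotic-gene-high barcodes with the highest doublet scores (6.21% and 6.31%, against 2.56% and 2.60% of the others) were kept; with likely doublets of both classes left out, the shares were 51.3% and 43.3%.

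Epithelial keratin Krt18 stood at 3556 and 3727 UMIs per 1000000 (CPM) in the mitotic-gene-high cells of libraries 1 and 2. The summed immune, fibroblast and endothelial marker lists each stayed at or below 1.64 CPM in these cells and in the others, and the red blood cell list was at 0.

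The summed mitotic UMIs ran on without a gap at the threshold. In library 2 they did not decline steadily, with 86 barcodes at sums of 20 or 21, 74 at 28 or 29 and 117 at 32 or 33. Among the cells chosen, the median was 21 UMIs (quartiles 14 and 31, highest 81) in library 1 and 28 (16 and 40, highest 105) in library 2, against 31 (16 and 44, highest 84) in day-4 vehicle. Library 1 thus held more cells near the threshold. Ube2c gave 66.3%, 67.6% and 67.9% of the summed UMIs in the 3 libraries, so membership leaned on this 1 gene. Just inside the threshold, at 10 or 11 UMIs, were 322 and 223 cells of the day-1 libraries, and just outside, at 8 or 9, were 373 and 246.

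**Figure D1:**
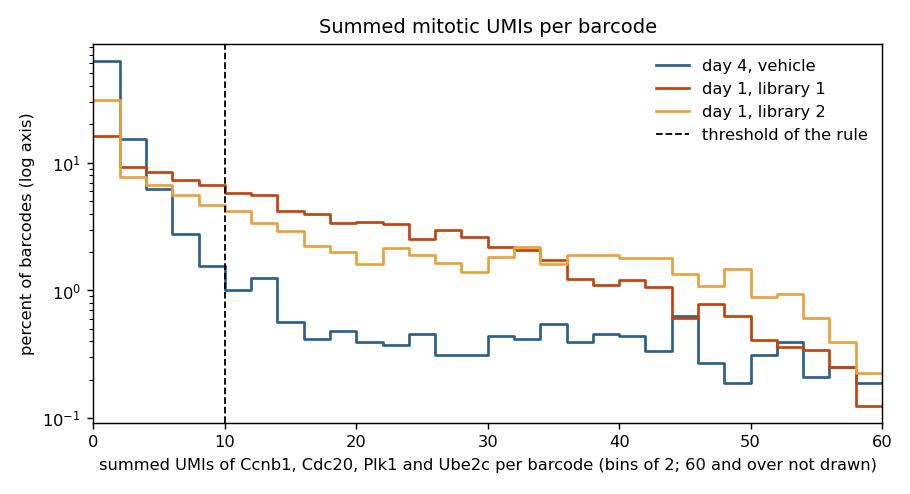
Percent of barcodes (log axis) by summed UMIs of Ccnb1, Cdc20, Plk1 and Ube2c in bins of 2, for both day-1 libraries and day-4 vehicle; the dashed line is the threshold of 10. Both day-1 lines stay above the day-4 line over most of the range with no gap at the threshold, and library 2 stays nearly level over the middle of the range.

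The 4 genes themselves, whose values chose the cells, stood as follows. Ube2c was at 1081 CPM in the mitotic-gene-high cells of library 1 and 1298 in library 2, against 246.5 and 164 in the other cells. Cdc20 was at 279 and 319.6 CPM against 85.9 and 54.2. Ccnb1, cyclin B1, was at 137 and 167 CPM against 39.6 and 23.2, and Plk1 at 133 and 137 against 32.1 and 19.7. In day-4 vehicle the other cells were lower still, for example 5.11 CPM of Ccnb1 and 5.94 of Plk1.

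The label of mitotic cells was checked against genes the rule did not name, which can set late from early cell-cycle mRNA and not mitosis from G2. Cenpf, a kinetochore protein that accumulates in G2, stood at 114 CPM in library 1 and 126 in library 2 at sums of 10 or 11, close to 90.3 and 97.5 at 8 or 9. It then stood at 406 and 408 CPM at sums of 30 to 44. Nusap1, a spindle protein, followed the same course from 36.3 and 51.9 CPM at 10 or 11 to 129 and 165 at 30 to 44. Ccne1, the cyclin E1 of the entry into DNA replication, ran the opposite way, from 95.4 and 88.7 CPM at 10 or 11 to 26.0 and 17.9 at 30 to 44. Cells just inside the threshold thus resembled those just outside and carried more replication-entry mRNA than the cells far above it.

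Mcm5, a subunit of the replicative helicase, was at 137 and 129 CPM at sums of 10 or 11 and at 84.3 and 68.8 at 30 to 44. Pcna, the sliding clamp of DNA polymerase, was at 315 and 272 CPM and then at 205 and 147. Gins2, another helicase component, was nearly flat, at 95.2 and 80.1 CPM and then at 89.4 and 78.5. The linker histone gene Hist1h1b was at 771 and 759.95 CPM at 10 or 11 and at 415 and 372 at 30 to 44. Ccnb2, the second B-type cyclin, was nearly flat in library 1, at 128 CPM at 10 or 11 and 140 at 30 to 44, while library 2 had 100.3 and 154. Of the mitotic-gene-high cells, 1043 of library 1 and 552 of library 2 also held 10 or more summed UMIs of the replication genes Mcm5, Mcm6, Pcna and Gins2. Deeper barcodes reach such a sum more easily, and no cell was assigned a phase from it.

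**Figure D2:**
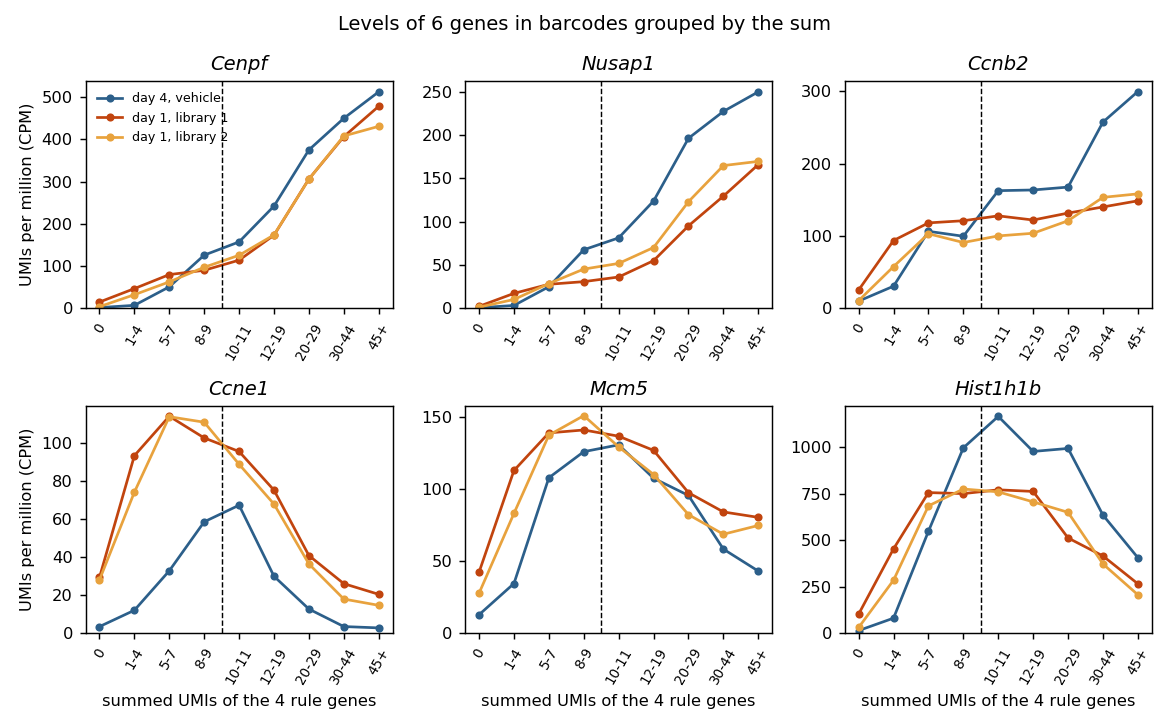
Pooled CPM of 6 genes in cells grouped by their summed mitotic UMIs, for both day-1 libraries and day-4 vehicle; the dashed line is the threshold. Cenpf and Nusap1 climb with the sum in all 3 libraries. At sums of 10 or more, Ccne1 declines and Hist1h1b is lowest in the top group of each day-1 library. Among the groups below the threshold, both of these genes are lowest at a sum of 0.

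Across single day-1 cells the genes most like the summed 4 genes, by Pearson correlation of log counts per 10000 UMIs among 9070 genes, were Birc5, Cenpf, Cdk1, Hmgb2, Cenpa, Ube2s, Cks2 and Cdca8. Birc5 (survivin, a chromosomal passenger protein) had 0.70 in library 1 and 0.82 in library 2. Cenpf had 0.68 and 0.76, and Cdk1 0.65 and 0.77. The most negative values were those of Selenop, with -0.31 and -0.45, and Rhoc, with -0.31 and -0.38. These cells share a library and differ in depth, so the values are descriptive.

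Of 8488 genes compared, 40 (0.471%) were at least 2-fold higher in the mitotic-gene-high cells of both day-1 libraries and 73 (0.860%) at least 2-fold lower. At 1.5-fold the counts were 116 (1.37%) and 236 (2.78%). The 40 comprised the 4 genes of the rule, 31 genes on lists of mitotic genes and 5 on no list: Parpbp, Depdc1a, Troap, Sapcd2 and Fam83d. Fam83d, which recruits casein kinase 1 to the spindle, stood at 22.4 and 23.2 CPM in the mitotic-gene-high cells against 4.04 and 2.63 in the others. Library 2 had the wider contrast, with 114 genes higher and 129 lower on its own, against 40 and 81 in library 1.

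Genes of the entry into mitosis were mostly higher. Of 11 cyclin and CDK1 genes, 8 were at least 1.5-fold higher in both libraries, with a median log2 ratio of 1.09 against 0.02 over all genes. Cdk1 was at 367 CPM in library 1 and 422 in library 2, against 151 and 101.4 in the others. Cdc25b, the phosphatase that starts CDK1 activation, was at 31.9 and 45.5 CPM against 9.23 and 8.95. Cyclin A2 (Ccna2), which acts from DNA replication to early mitosis, was at 245 and 243 CPM against 140.3 and 84.0. The CDK1-inhibiting kinases differed little: Wee1 was at 38.5 and 39.4 CPM against 32.6 and 24.98, and Pkmyt1 at 21.1 and 20.2 against 18.97 and 14.4.

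Genes of the spindle and its motors had the highest list medians. At least 1.5-fold higher in both libraries were 11 of 12 mitotic kinesins (median log2 ratio 1.29) and 11 of 13 spindle proteins (1.27). Tpx2, the activator of Aurora A, was at 171 and 181 CPM against 58.5 and 36.5. Prc1, which bundles the central spindle, was at 191 and 234 CPM against 63.2 and 42.7. Kif11, the motor that separates the spindle poles, was at 121 and 127 CPM against 47.9 and 31.1, and Kif20a, a motor of cytokinesis, at 46.3 and 46.3 against 15.1 and 9.17. All of these were higher in both libraries. The 9 tubulin genes compared, the building blocks of microtubules, had a median of 0.23, with 0 higher and 2 lower at 1.5-fold.

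At chromosomes, 8 of 9 chromosomal passenger and Aurora genes were higher (median 1.25). Aurka, whose kinase matures the spindle poles, was at 129 and 160.5 CPM against 43.9 and 31.5, and Aurkb, which corrects faulty attachments, at 92.8 and 111 against 37.7 and 27.1. Of 14 kinetochore and centromere genes 7 were higher (0.83), led by Cenpf, at 283 and 319.6 CPM against 60.3 and 36.9. The kinetochore motor Cenpe was at 170.1 and 196 CPM against 55.3 and 34.1. Of 7 checkpoint genes, which hold anaphase until all chromosomes are attached, 5 were higher (0.98). The checkpoint kinase gene Bub1b was at 75.3 and 75.3 CPM against 29.9 and 19.5. Cytokinesis genes had 8 of 9 higher (1.09), and condensin and chromatin genes 7 of 17 (0.58). Cohesin, the ring that holds sister chromatids from DNA replication on, had 0 of 11 (0.26).

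The APC/C list, which leaves out Cdc20 and Ube2c, differed less: 3 of 14 genes were higher, with a median of 0.24. These were Fzr1 (the activator that takes over from Cdc20), Ube2s (which extends ubiquitin chains) and Espl1 (separase). Ube2s was at 1167 and 1234 CPM against 715 and 531. Securin, Pttg1, was at 34.8 and 31.6 CPM against 33.3 and 28.3. Of 8 regulators of G2/M transcription compared, 1 was higher, Foxm1, the forkhead activator of the late wave, at 21.7 and 23.4 CPM against 12.3 and 7.96.

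Replication genes as a group, with UMIs summed over cells, stood at nearly the same level in both classes. The median cell held 35.5 and 29.4 list UMIs per 10000, against 38.0 and 15.6 in the others. The other cells were spread widely, with quartiles of 13.5 and 51.1 in library 1 and 4.02 and 43.0 in library 2. Of 29 DNA replication genes 0 were higher and 1 lower, with a median of -0.01. The lower gene was Ung, the uracil glycosylase that repairs DNA at the replication fork, at 42.8 and 23.9 CPM against 70.6 and 54.8. Of 14 G1/S genes 2 were lower, both E-type cyclins. Ccne1 was at 51.9 and 37.2 CPM against 92.2 and 71.5, and Ccne2 at 13.3 and 6.32 against 24.0 and 19.2. Replication histones had a median of 0.31, with 0 higher and 1 lower of 9; these genes are near copies and most of their mRNA lacks a poly(A) tail, so their counts are uncertain.

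Hormone genes made up the sharpest deficit. All 13 enteroendocrine genes were lower at 1.5-fold, with a median log2 ratio of -3.22 in library 1 and -4.35 in library 2, and 12 of them were among the 73 genes that were 2-fold lower. Cck, cholecystokinin, was at 7.69 CPM in the mitotic-gene-high cells of library 1 and 94.8 in library 2, against 1472 and 4024 in the other cells. The other cells were thus 191-fold higher in library 1 (counting interval 172 to 214) and 42.5-fold in library 2 (41.0 to 43.9). Chgb, a hormone granule protein, was at 16.8 and 39.0 CPM against 713 and 2261. Gcg, the precursor of glucagon-like peptides, was at 2.42 and 17.3 CPM against 455 and 1188, and Ghrl, ghrelin, at 1.52 and 3.61 against 179 and 406. Cells with 50 or more list UMIs per 10000 numbered 6 and 10 among the mitotic-gene-high cells, of which 5 and 9 had doublet scores in the range left out above, against 162 and 400 among the others. Of the 73 genes, 53 were on no list. They included hormone genes that the list leaves out, such as Pyy and Sst, the latter at 0.0466 and 0.423 CPM against 26.3 and 89.0. Also among them were Reg4, a lectin of secretory cells, at 31.6 and 155 CPM against 252 and 686, and Vim. Vim, an intermediate filament gene, was at 0.792 and 0.988 against 22.3 and 66.4.

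Enterocyte genes were lower to a smaller degree, 13 of 23 at 1.5-fold with a median of -0.85. Apoa1, the apolipoprotein of exported lipid particles, was at 32.9 and 117 CPM against 192 and 583. Sis, the sucrase-isomaltase that digests sugars at the cell surface, was at 154 and 275 CPM against 345 and 619.9. Fabp1, the fatty acid carrier of absorptive cells, was still at 2137 and 3839 CPM, against 4372 and 7049. Of 7 goblet genes 6 were lower (-1.09) and of 7 Paneth genes 4 (-0.78). Of 13 CDK inhibitor and p53 target genes 1 was higher and 3 lower, with a median of -0.04. Among the lower genes Btg2, an antiproliferative gene, was at 23.8 and 36.7 CPM against 53.6 and 97.4. Cdkn1a, the CDK inhibitor p21, was at 128 and 192 against 196 and 281, less than 1.5-fold lower in library 2. The stem cell list had 1 of 13 higher, Ascl2, a transcription factor of crypt stem cells, at 30.7 and 21.1 CPM against 17.4 and 9.42.

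**Figure D3:**
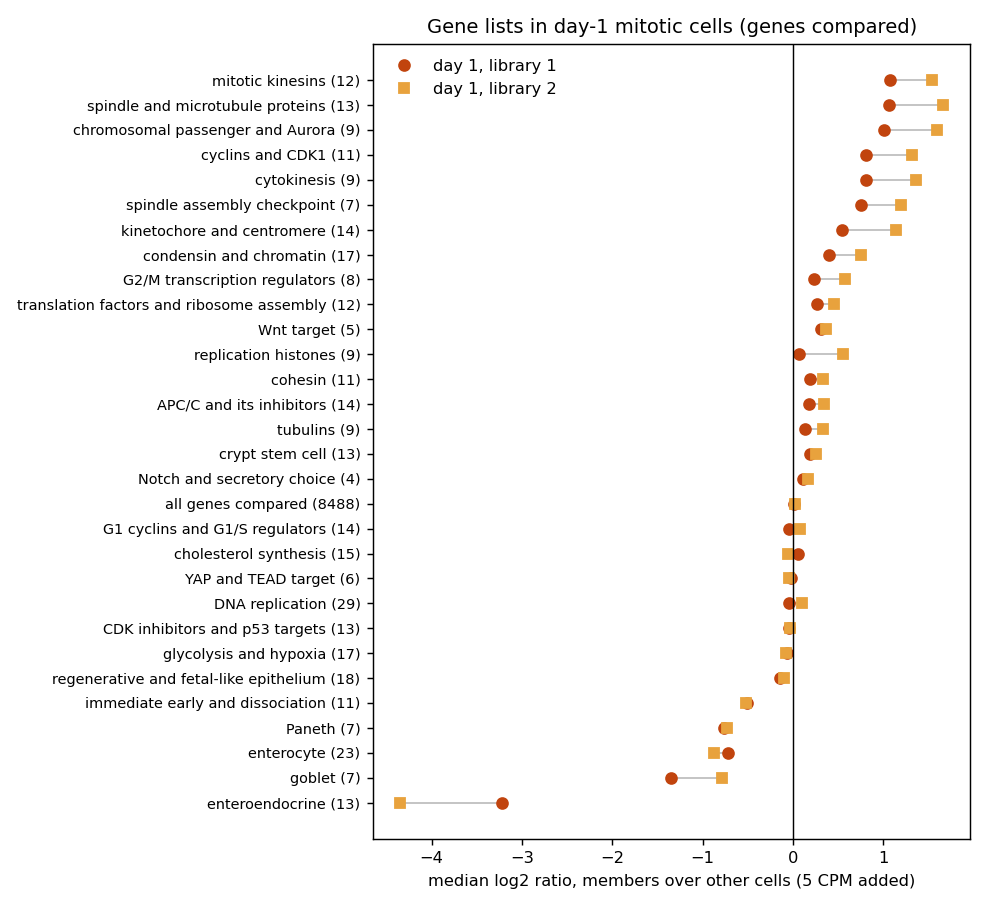
Median log2 ratio of mitotic-gene-high over other cells for each gene list, with 1 point for each day-1 library. Lists of kinesins, spindle and chromosomal passenger genes lie above 1 in both libraries, replication genes near 0, and enteroendocrine genes below -3.

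The secretory deficits depended on depth, and the absorptive deficit changed less with it. Among barcodes with 10000 to 20000 UMIs only, the enteroendocrine median was -0.91 and the enterocyte median -0.60, while the goblet and Paneth medians turned to 0.41 and 0.20. The floor of 10 CPM was applied anew at that depth. The enteroendocrine, enterocyte and Paneth medians there thus cover fewer genes than those over all barcodes. Among the hormone genes left out was Nts, at 0.101 and 9.94 CPM against 0 and 1.00 in the others. At that depth Cck was at 4.72 and 52.4 CPM in the mitotic-gene-high cells against 69.3 and 146 in the others. Zg16, a goblet granule protein, was at 40.1 and 215 CPM against 10.1 and 194 there, and over all barcodes at 100.5 and 471 against 316 and 749. The 2-fold lower genes numbered 11 at that depth. Goblet mRNA sat in few cells: the top 5% of mitotic-gene-high cells, 146 and 118 cells, held 82.0% and 91.9% of the list's UMIs, against 12.3% and 13.2% for the stem list. Without likely doublets, and over all depths, the medians were -4.21 for enteroendocrine, -0.86 for enterocyte, -1.20 for goblet and -0.79 for Paneth genes. The part of free RNA in these values was not tested.

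**Figure D4:**
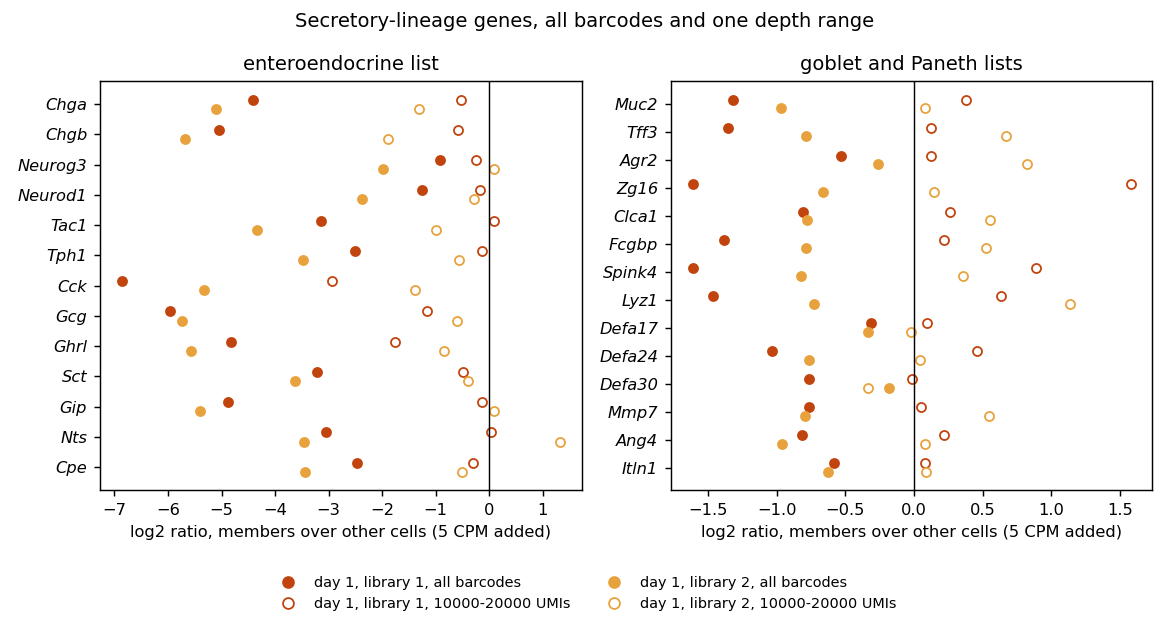
Log2 ratio of mitotic-gene-high over other cells for single genes of the enteroendocrine, goblet and Paneth lists, by library. Filled points are over all barcodes and open points over barcodes of 10000 to 20000 UMIs. At that depth the goblet genes drawn and most Paneth genes lie above 0 in both libraries. Most enteroendocrine genes stay below 0 at a smaller size. Nts lies above 0 in both libraries, and Tac1, Gip and Neurog3 do so in a single library each.

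A further comparison was with the 504 and 445 other cells that held 10 or more UMIs of the 4 replication genes. Against them, 26 of 8328 genes (0.312%) were 2-fold higher in both libraries and 5 (0.0600%) lower; library 2 alone had 51 and 26. Spindle genes had 9 of 13 and kinesins 9 of 12 higher at 1.5-fold (1.04% of all genes), with medians of 1.09 and 0.91. DNA replication genes had 12 of 29 and G1/S genes 6 of 14 lower (0.540% of all genes), with medians of -0.57 and -0.34. Ccne1 was at 51.9 and 37.2 CPM in the mitotic-gene-high cells against 128 and 138 in the replicating cells, and Cenpf at 283 and 319.6 against 55.5 and 50.9. Goblet genes, lower against all other cells, were here higher for 3 of 7 (median 1.02). Both sides were chosen by measured values, so this is a description.

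The same rule applied to day-4 vehicle gave 555 cells, and their summed counts were compared with those of both day-1 libraries by edgeR's quasi-likelihood test with Benjamini-Hochberg adjustment. Of 15504 genes 1826 (11.8%) were higher at day 1 and 1901 (12.3%) lower at an adjusted p under 0.05. The single day-4 library adds nothing to the estimate of spread, which rests on the difference between the 2 day-1 libraries. DESeq2 called 1386 and 882 genes.

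Among the mitotic lists more genes were lower than higher at day 1. Of 12 kinesins 0 were higher and 5 lower at day 1 (median log2 difference -0.33, against 0.01 over all genes), and of 13 spindle genes 0 were higher and 3 lower (-0.26). Of 9 chromosomal passenger and Aurora genes 4 were lower, and of 7 checkpoint genes 3, with 0 higher in both lists. Tubulins had 4 higher and 0 lower of 10, and the APC/C list 2 and 3 of 14. Cdk1 was at 367 and 422 CPM at day 1 and 438 at day 4 (log2 difference -0.10, SE 0.13, adjusted p 0.64). Tpx2 was at 171 and 181 against 181 CPM (0.01, SE 0.12, adjusted p 0.97), and Aurka at 129 and 160.5 against 166 (-0.14, SE 0.15, adjusted p 0.53). Nusap1 was lower, at 90.6 and 128 CPM against 198 (-0.80, SE 0.18, adjusted p 0.013). Ccnb2 was lower too, at 132 and 133 CPM against 230.0 (-0.74, SE 0.11, adjusted p 0.0020). Day-4 cells lay higher on the sum than day-1 cells, and within sums of 30 to 44 Ccnb2 was at 140 and 154 against 258 CPM and Nusap1 at 129 and 165 against 227.

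Genes of the entry into DNA replication were higher in the day-1 cells. Of 29 DNA replication genes 14 were higher and 1 lower (median 0.51), and of 14 G1/S genes 8 were higher and 0 lower (0.66). Ccne1 was at 51.9 and 37.2 CPM at day 1 and 14.2 at day 4 (1.70, SE 0.23, adjusted p 0.0010). Cdc6, which loads the replicative helicase, was at 27.8 and 19.3 against 8.03 CPM (1.60, SE 0.26, adjusted p 0.0026). E2f1, the activator of replication genes, was at 26.7 and 18.6 against 8.76 CPM (1.42, SE 0.25, adjusted p 0.0042). Within sums of 30 to 44, Ccne1 was still at 26.0 and 17.9 CPM at day 1 against 3.46 at day 4. Replication histones went the other way, with 2 higher and 6 lower of 10.

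Crypt stem cell genes were lower in the day-1 cells. Olfm4, a marker of homeostatic crypt stem cells, was at 1.54 and 1.02 CPM in the day-1 cells and 698 in the day-4 vehicle cells (log2 difference -9.02, SE 0.19, adjusted p 4.3e-08). Lgr5, the R-spondin receptor that marks crypt stem cells, was at 11.8 and 6.97 against 103 CPM (-3.39, SE 0.24, adjusted p 2.6e-05). Axin2, a feedback target of Wnt signalling, was at 33.8 and 25.1 against 84.7 CPM (-1.47, SE 0.17, adjusted p 0.00047). Ascl2 was at 30.7 and 21.1 against 35.8 CPM and did not pass the test (-0.41, SE 0.21, adjusted p 0.19). Sox9, a crypt transcription factor, was at 88.3 and 72.5 against 85.3 CPM (adjusted p 0.89). In all, 10 of 18 stem cell genes were lower at day 1 and 1 higher.

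Genes of regenerating and fetal-like epithelium went the other way, and 19 of 20 tested were higher at day 1 and 0 lower (median 3.66). Ly6a, which encodes Sca-1, a marker of injured epithelium, was at 133 and 146 CPM against 5.72 (4.66, SE 0.18, adjusted p 1.0e-06). Lgals3, galectin 3, was at 885 and 1245 against 18.4 CPM (5.91, SE 0.27, adjusted p 2.5e-06). Clu, clusterin, which marks stem cells that reappear after injury, was at 29.05 and 50.8 against 3.53 CPM (3.55, SE 0.41, adjusted p 0.00042). Msln, mesothelin, had 68.1 and 130.3 CPM against 1 UMI in day-4 vehicle, ratios of 560 (counting interval 100 to 22120) and 1071 (192 to 42300). The other day-1 cells held these genes at similar levels, with 124 and 127 CPM of Ly6a and 977 and 1195 of Lgals3. At the ends of the scale, Samd5 had 5.15 and 5.53 CPM against 0 UMIs in day-4 vehicle, at least 14.1-fold and 15.1-fold higher against a floor of 3 UMIs per library. Pcdh8 had 0 UMIs in both day-1 libraries against 4.14 CPM, at least 59.2-fold and 48.9-fold lower.

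Metabolic and stress lists were lower in the day-1 cells. All 17 genes of glycolysis and hypoxia were lower (median -1.42). Pgk1, a glycolytic kinase, was at 622 and 670 against 2154 CPM (-1.68, SE 0.12, adjusted p 3.1e-05), and the hypoxia-induced Bnip3 at 11.9 and 12.98 against 133 (-3.37, SE 0.13, adjusted p 9.1e-07). Of 15 cholesterol synthesis genes 14 were lower (-1.35), among them Fdps, which makes farnesyl diphosphate, at 104 and 83.5 against 336 CPM. Of 14 immediate early genes 10 were lower and 2 higher (-1.73). Egr1 was at 23.1 and 22.9 against 205 CPM (-3.10, SE 0.11, adjusted p 8.6e-07). Immediate early genes also respond to cell dissociation, and its part in this difference was not tested. The other day-1 cells stood low as well. Their summed glycolysis and hypoxia list was at 6500.5 and 6940 CPM, against 6380 and 6849 in the mitotic-gene-high cells. Cholesterol synthesis was at 1458.5 and 1396 against 1491 and 1252, and immediate early genes at 1244 and 1543 against 895 and 1113. In the other cells of day-4 vehicle these lists were at 18702, 4207 and 3137 CPM.

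Set beside all 4 day-4 libraries, the day-1 values lay outside the vehicle, atRA and vitamin A-free range for several of these genes, and the RXR antagonist library stood apart. With 1 library per treatment these are values with no test. Ly6a in mitotic-gene-high cells was at 133 and 146 CPM at day 1, at 5.72, 17.2 and 9.71 in vehicle, atRA and vitamin A-free cells, and at 1614 in the 227 RXR antagonist cells. Lgals3 was at 885 and 1245, then 18.4, 25.8 and 20.8, and 1945. Olfm4 was at 1.54 and 1.02, then 698, 418 and 824, and 1.23. Pgk1 was at 622 and 670, then 2154, 743 and 2344, and 3692. For Ly6a, Lgals3 and Olfm4 the RXR antagonist cells were on the side of the day-1 cells, and for Pgk1 they were on the far side of day-4 vehicle. Isx, a homeobox gene induced by retinoic acid, was at 1.14 and 0.875 CPM at day 1 and at 144, 241 and 48.2 in vehicle, atRA and RXR antagonist cells, with 0 UMIs in vitamin A-free cells.

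**Figure D5:**
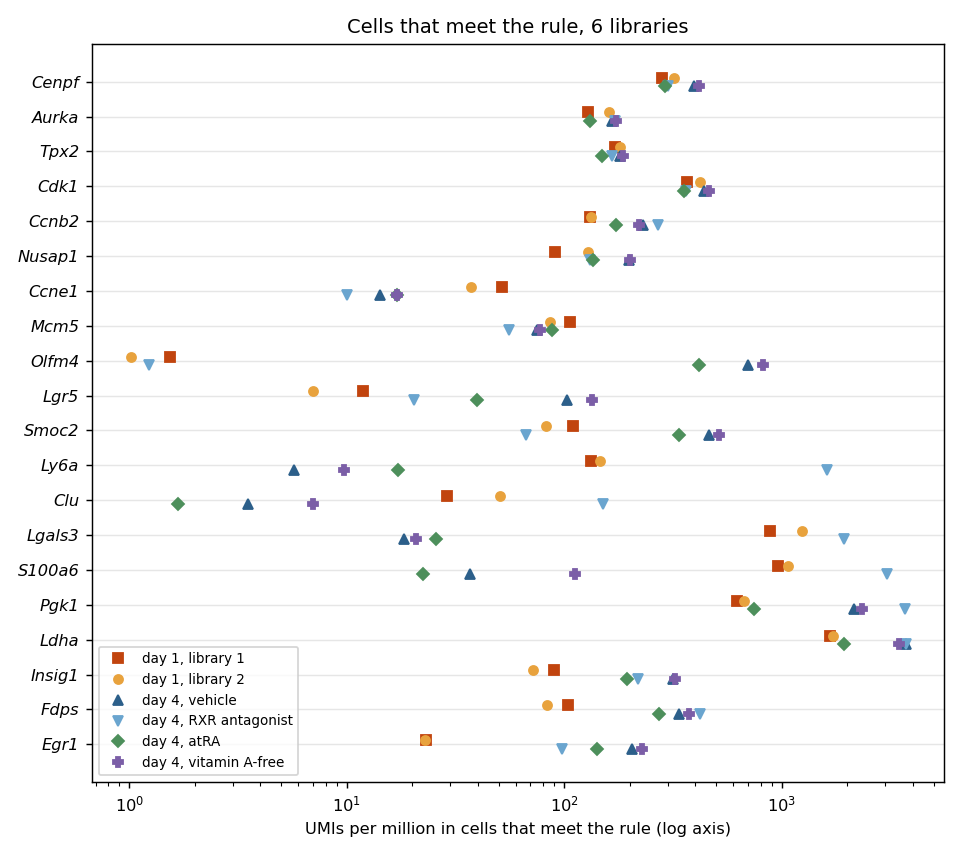
CPM (log axis) of 20 genes in the mitotic-gene-high cells of all 6 libraries, with 1 point for each library. Olfm4, Lgals3 and Ly6a separate both day-1 libraries and the RXR antagonist library from the other day-4 libraries. Mitotic genes lie closer together, with Nusap1 and Ccnb2 lower in both day-1 libraries than in day-4 vehicle.

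Whether the step from other to mitotic-gene-high cells itself differed between days was tested as an interaction in edgeR, with the library as a block. Of 14882 genes the difference was higher at day 1 for 2756 (18.5%) and lower for 2477 (16.6%). These totals include the 4 genes of the rule and the genes that follow their sum, so they depend in part on the choice of cells. They are therefore no measure of how far the days differ. Genes that follow the sum were set apart by the rule on both days, so they are described by their levels alone. Cenpf was at 60.3 and 36.9 CPM in the other cells of day 1 and 10.3 in those of day-4 vehicle, while the mitotic-gene-high cells had 283 and 319.6 against 394. Fabp1 was at 2137 and 3839 CPM against 4372 and 7049 at day 1, and at 2200 against 24903 in day-4 vehicle. For both genes the gap between the cell groups was narrower at day 1. DESeq2 called 1092 and 809 genes, a fit on all 4 day-4 libraries 376 and 302, and that fit called 0 with either day-1 library left out (1626 and 1709 at an unadjusted p under 0.05), so the calls of that fit rest on both day-1 libraries.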

How the data were processed

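Counts of UMIs per gene and barcode were used as the authors deposited them, for 55335 genes in 6 libraries; bcl2fastq 2.17, Cell Ranger 3.1.0 and GRCm38 appear, without a stated role, in the submitters' processing notes. Doses are written there with the unit "μm" and are read as µM. No further cell filter was applied. The members, the gene lists and the tests were chosen with earlier results of these data known.

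UMIs were summed over cells of each class and library and scaled to CPM. The mitotic-gene-high cells of the day-1 libraries held 42899265 and 35444584 UMIs, the other cells 23506833 and 27378508, and those of day-4 vehicle 8216430. Ratios between classes used a pseudocount of 5 CPM, which understates folds of low genes, and genes with 10 CPM in at least 1 class. The day and interaction tests used edgeR 4.0.16 (R 4.3.3) with TMM scaling, its default filter on low counts and a Benjamini-Hochberg adjusted p under 0.05; DESeq2 1.42.0 was an alternative. When tested on simulated data in which 200 genes differed, the day test recovered 52% of 2-fold and 78.6% of 4-fold changes with 19.4 false calls on average, the interaction 60%, 75.6% and 9.2. Other steps used Python 3.11.15, scanpy 1.11.5 and its Scrublet scores. Scrublet's own threshold failed, so likely doublets were taken as the top scores at 0.8% per 1000 barcodes.

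Named genes were those of the rule, the 15 with the highest and the 15 with the lowest ratios, up to 5 per list, the 8 per direction with the largest fitted changes and the 8 most like the sum; other list genes in the day comparison were picked for their known roles after their values were seen. Alternatives were other thresholds, floors, pseudocounts, scalings, depths and left-out libraries.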

Additional observations from a re-analysis of the deposited data

Results flagged for a closer look

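Several results were taken up because the step from other to mitotic-gene-high cells differed between day 1 and day-4 vehicle in edgeR's interaction test. That test called 5233 genes (35.2%) in either direction, counting the genes of the rule and those that follow their sum. The total thus depends in part on the choice of cells. The 8 genes with the most positive log2 differences were Gda (10.81), Trex2 (8.25), Slc47a1 (8.09), Ces2b (8.05), Lipk (7.85), Mro (7.68), Synpo (7.67) and Cyp2c52-ps (7.51). These 8 had 0 UMIs in the day-4 vehicle mitotic-gene-high cells, so their fitted sizes depend on the prior count. They do not stand for a rise in the mitotic-gene-high cells of day 1. There Gda was 1.65-fold and 2.06-fold higher in the other cells, and Synpo 7.76-fold and 10.5-fold. Among the 8, the other cells were lower only for Cyp2c52-ps in library 1, with 4 UMIs against 14 (0.521-fold). The 8 most negative were Adcy1 (-5.97), Cd177 (-5.41), Pyy (-5.02), Slc22a3 (-5.00), Pcyt1b (-4.92), Hhex (-4.75), Nme9 (-4.69) and Ramp3 (-4.68). Their sizes are uncertain too, since the mitotic-gene-high cells held at most 16 UMIs of each per library (Pyy, day-1 library 2). Slc22a3 had 2 and 1 UMIs in these cells at day 1 and 12 in day-4 vehicle, and Pcyt1b 0 and 2 against 2. Pyy, the gut hormone peptide YY, stood at 0.0233 and 0.451 CPM in the mitotic-gene-high cells against 18.1 and 47.7 in the other day-1 cells, with low counts at day 4 (0.243 against 0.856 CPM). Under DESeq2, 5 of these 16 genes kept their call.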

How the results depend on the processing

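The share of barcodes that met the rule was 70.1% and 57.8% in the day-1 libraries at a threshold of 5 UMIs, 29.4% and 29.5% at 20, and 58.8% and 51.6% after thinning, with library 1 at 50.1% per 12000 UMIs. The number of genes 2-fold lower was 43 with a floor of 50 CPM, 140 with a pseudocount of 1 CPM, 169 with equal weight per cell and 11 among barcodes of 10000 to 20000 UMIs. With 1 library left out, the higher genes ranged from 40 to 114 and the lower from 81 to 129. Against replicating cells, a pseudocount of 1 CPM gave 41 higher and 9 lower, and leaving out a library 28 to 51 and 6 to 26. At 10000 to 20000 UMIs the goblet (0.41) and Paneth (0.20) medians reversed, the Paneth median over fewer genes. Of 316 alternative list medians, 235 moved by less than the spread between libraries, 79 moved more and 2 reversed. The day test gave 882 lower genes with DESeq2; of its 16 genes of largest change, 15 kept their call there. The interaction gave 1092 higher and 809 lower genes with DESeq2, 376 and 302 over all 4 day-4 libraries, 399 and 285 there with sums of 20 or more, and 0 to 0 with a day-1 library left out. The cause was not tested. The 2 tests against day-4 vehicle alone leave no residual degrees of freedom without a day-1 library, so only log2 ratios of those 16 genes were recomputed for the day test, and all 16 kept their direction. Without filter, doublets or low sums, their other counts stayed within 1.5 times. No paired analysis was possible because the groups compared share fewer than 2 replicate numbers; cells of both classes were compared within their library.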

Other observations

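Mitotic-gene-high cells of the day-4 RXR antagonist library differed in the make-up of the sum. Cdc20 stood at 561 CPM there, against 279 and 319.6 in the day-1 libraries, 318.5 in day-4 vehicle, 281 under atRA and 326 in vitamin A-free medium, and gave 26.4% of the summed UMIs against 15.0% in day-4 vehicle. Of its 227 cells, 56 had sums of 60 or more, against 26 of 555 in day-4 vehicle, 23 of 2915 and 40 of 2345 at day 1. These are values of 1 library.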
